A study of Mus musculus with 10 samples.

Results

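The 32 genes described here encode enzymes, carriers and regulators of sterol and fatty acid synthesis in mouse. They were chosen by name out of the 48526 genes of the count table. The sterol branch has 19 of them: 7 enzymes of the mevalonate steps, 11 enzymes from squalene to cholesterol, and the sterol carrier Stard4. The fatty acid branch has 8, and 5 regulators were kept apart from both branches. All 32 passed the filter on low counts, which kept 13452 genes. The lowest total in any library was 43 counts, for Ebp. RNA came from primary cortical neurons of wild-type C57BL/6J mouse embryos (E16.5). All cultures had received 0.5 µM AraC, an agent that kills dividing cells, at 3 to 4 days in vitro. They were then given a control lentivirus or one that expressed H2BE, a variant of histone H2B, from a constitutively active promoter. BDNF, a neurotrophin that signals through the receptor TrkB, was added or not, and RNA was taken 24 h later. The 4 groups are therefore Control (control virus), BDNF (control virus and BDNF), H2BE (H2BE virus) and H2BE+BDNF (H2BE virus and BDNF). The BDNF dose is not given in the sources used here.

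Cells make cholesterol from acetyl-CoA through mevalonate, farnesyl diphosphate, squalene and lanosterol. Fatty acids are made from the same acetyl-CoA pool and are then elongated and desaturated. Genes of both branches are targets of the SREBP transcription factors encoded by Srebf1 and Srebf2. The SREBP precursors are held in the endoplasmic reticulum by Scap together with Insig1 or Insig2 while sterols are plentiful. In the brain cholesterol is made locally, because lipoproteins of the blood do not cross the blood-brain barrier. Growing neurons use sterols and fatty acids for new membrane.

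With the control virus most genes of both branches were higher after BDNF, mostly by less than 1.5-fold. The sterol median log2 fold change was 0.33, and 0.069 without BDNF replicate 1. With the H2BE virus 5 of the 8 fatty acid genes had a positive value, with a median of 0.084. With the control virus 17 of the 32 genes rose and 2 fell (edgeR quasi-likelihood test, Benjamini-Hochberg adjusted p under 0.05 over all genes tested). The background of all genes tested was 31.4% called, 16.8% higher and 14.7% lower, and the 19 calls are 59.4% of the 32. With the H2BE virus 7 rose and 1 fell, which is 25.0% of the 32 against a background of 25.9% (13.5% higher and 12.4% lower). Levels are given below as CPM, each gene's counts scaled to a fixed library total after TMM adjustment, and changes as log2 fold changes with their standard error (SE). The fatty acid desaturase gene Scd1 had the largest of the 32 with the control virus, 0.81 (SE 0.11, adjusted p = 3.52e-05). The sterol desaturase gene Sc5d had 0.58 with the control virus and 0.56 with the H2BE virus. Hmgcs1, the most abundant of the 32, and Tm7sf2 were the 2 that fell. The BDNF libraries lay wholly above Control at 19 genes and wholly below at 2, where the background was 31.2% and 33% of all genes. A gene that passed the test's threshold is said to be called. Each call among the 32 genes was repeated under 17 alternative settings, 8 of which leave out 1 library each. Calls of genes outside the 32 are given from the main fit only. Leaving out a library leaves its group with 1, which is then assumed to vary like the libraries of the other groups.

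**Figure D1:**
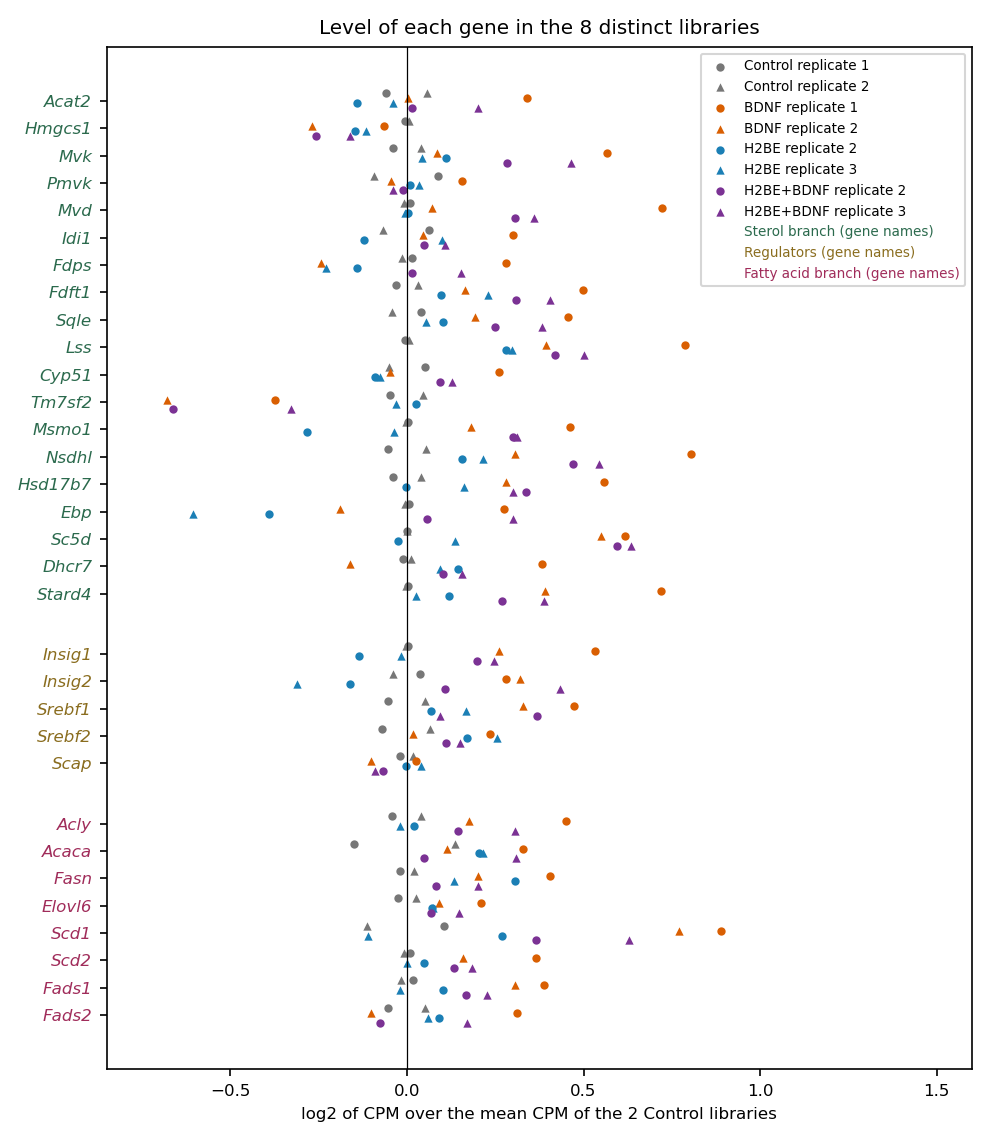
Level of each of the 32 genes in the 8 distinct libraries, as log2 of its CPM over the mean CPM of the 2 Control libraries (horizontal axis), with 1 row per gene. Circles and triangles are single libraries, and orange BDNF replicate 1 lies above BDNF replicate 2 for 31 of 32 genes.

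Of the 10 libraries, 8 were distinct. Control replicate 3 exceeded Control replicate 1 at 0 of 48526 genes and held 73.7% of its total. BDNF replicate 3 exceeded BDNF replicate 1 at 0 genes and held 61.9% of its total, so both were left out and each group had 2 libraries. Totals of the 8 libraries ran from 5058074 to 14142545 counts, of which the 32 genes made up 0.629% to 0.773%. The labels do not say whether replicates came from separate cultures, so the tests rest on a spread between libraries that may be technical only. The H2BE gene H2bc21 had a CPM of unadjusted totals of 3.67 to 5.28 in Control and BDNF and 32.1 to 42.8 in the H2BE groups. Summed CPM of 8 neuron markers was 6206 to 6235 in Control, 6556 to 6920 in BDNF, 6445 to 6484 in H2BE and 6444 to 6449 in H2BE+BDNF. All 8 were detected in every library. After BDNF 2 of these 8 were called higher and 3 lower with each virus. Among all genes tested 31.4% were called in either direction with the control virus and 25.9% with the H2BE virus. Summed CPM of 11 oligodendrocyte lineage markers was 54.7 to 59.2 in Control and 86.9 to 98.2 in BDNF. It was 55.8 to 60.5 in H2BE and 93.3 to 98.3 in H2BE+BDNF. Of those 11 markers 2 to 3 were at 0 in each library, and Sox10 was at 0 in 7 of 8. Mbp, a myelin gene of that list, was at 20.3 and 19.9 CPM in Control, 50.2 and 52.2 in BDNF, 25.9 and 24.6 in H2BE, and 60.1 and 61.5 in H2BE+BDNF. Summed CPM of 8 astrocyte markers was 377 to 385 in Control, 432 to 461 in BDNF, 457 in both H2BE libraries and 442 to 449 in H2BE+BDNF, with none at 0. Markers of dividing progenitors summed to 39.8 to 47.7 in Control and 55.8 to 61.1 in BDNF. They summed to 38.1 to 44.5 in H2BE and 48.5 to 54.5 in H2BE+BDNF. Mural and fibroblast markers summed to 48.0 to 71.6, microglia markers to 1.98 to 7.04 and endothelial markers to 2.39 to 4.54 over all libraries. Of 8 tested oligodendrocyte lineage markers Mbp alone was called with either virus, higher in both. Of 6 dividing progenitor markers 4 were called higher with the control virus (Mki67, Top2a, Nes and Sox2) and 1 with the H2BE virus (Mki67). Of 7 tested astrocyte markers 2 were called higher with the control virus (Slc1a2 and Gja1). Among all genes tested 16.8% were called higher with the control virus and 13.5% with the H2BE virus. The part of these markers in the BDNF values below was not tested. In these bulk samples more cells of a type and more RNA per cell cannot be told apart.

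BDNF replicate 1 stands apart for these genes. It was higher than BDNF replicate 2 at 31 of 32, with a median difference of 0.33 on the log2 scale for the sterol branch and 0.20 for the fatty acid branch. Over all genes tested it was higher at 6779 of 13452, with a median difference of 0.0016. In the other groups the median absolute difference between the 2 libraries over the 32 genes was 0.070 (Control), 0.076 (H2BE) and 0.089 (H2BE+BDNF). Each gene called with the control virus is therefore also given without that library.

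In level per exon length the 32 genes spanned nearly 2 orders of magnitude. Hmgcs1, HMG-CoA synthase of the mevalonate steps, had the highest mean over the 8 libraries, 274 CPM per kb of exon. Scd2, the main stearoyl-CoA desaturase gene of brain, was next at 164. Cyp51, the lanosterol demethylase, was at 87.2 CPM per kb, ATP citrate lyase Acly at 74.9, squalene epoxidase Sqle at 61.3 and fatty acid synthase Fasn at 60.9. The lowest 3 were Tm7sf2 (5.58), Ebp (5.47) and Srebf1 (3.02). Scd2 was 13.8 to 22.8 times Scd1 per kb in every library, and Insig1 was 3.87 to 5.41 times Insig2. Hmgcs1 alone gave 37.6% and 38.1% of the summed sterol level in the Control libraries. That share was 30.0% and 32.2% in BDNF, 35.6% and 35.4% in H2BE, and 30.7% and 31.1% in H2BE+BDNF, so it was lower in all 4 libraries with BDNF than in all 4 without. Scd2 gave 39.2% to 41.2% of the fatty acid sum in all 8 libraries. Exons of Hmgcs1 (557 bases), Lss (381), Cyp51 (166) and Srebf1 (109) overlap genes on the opposite strand, Gm48342, 4930483K19Rik, Akap9 and Rai1. Because the strand setting of the counting is not known here, reads of such partners cannot be told apart.

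**Figure D2:**
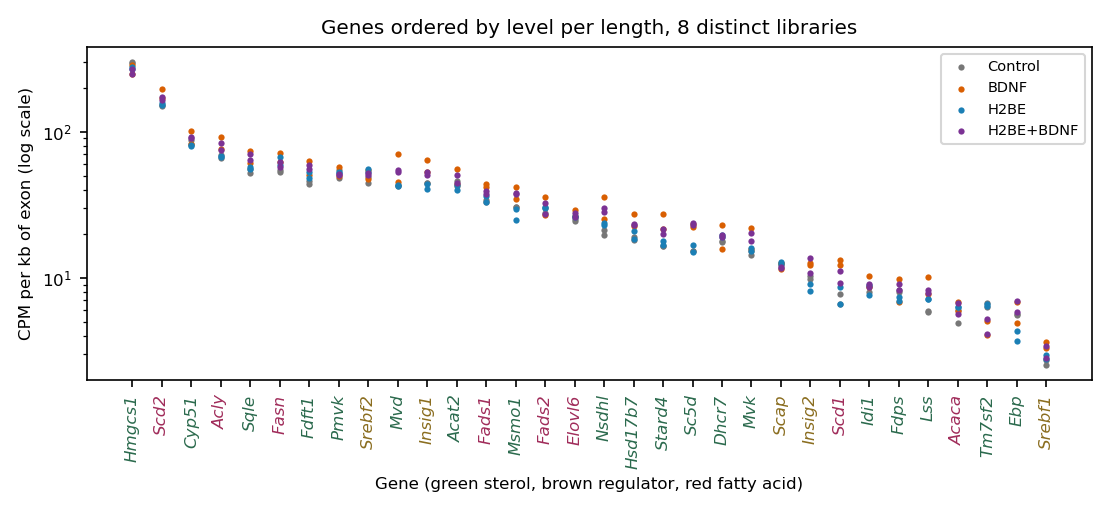
Level of each gene in CPM per kb of exon (vertical axis, log scale), genes ordered by their mean over the 8 distinct libraries, with 1 point per library coloured by group. Hmgcs1 and Scd2 lie above all others, and Srebf1 is lowest at a mean of 3.02.

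Sequences before the start sites are shown for 6 genes whose levels the results turn on: both genes that fell after BDNF (Hmgcs1, Tm7sf2), 2 sterol genes and 1 regulator that rose (Sc5d, Lss, Insig1), and Fasn of the fatty acid branch. Each is the 250 bases upstream of the RefSeq start, build GRCm38.p6, read 5′ to 3′ on the gene's strand. Capitals mark every match, on either strand, to 4 motifs: the sterol regulatory element TCACNCCAC, the NF-Y box CCAAT, the GC box GGGCGG and the E-box CACGTG. Adjoining or overlapping matches run together.
Hmgcs1 (ENSMUSG00000093930, chr13:119690101-119690350, plus strand): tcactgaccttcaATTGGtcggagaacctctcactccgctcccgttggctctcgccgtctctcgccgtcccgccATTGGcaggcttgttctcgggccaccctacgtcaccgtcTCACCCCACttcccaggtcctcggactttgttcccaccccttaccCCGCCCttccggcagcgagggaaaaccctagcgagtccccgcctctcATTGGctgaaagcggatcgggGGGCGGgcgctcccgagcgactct
Tm7sf2 (ENSMUSG00000024799, chr19:6067851-6068100, minus strand): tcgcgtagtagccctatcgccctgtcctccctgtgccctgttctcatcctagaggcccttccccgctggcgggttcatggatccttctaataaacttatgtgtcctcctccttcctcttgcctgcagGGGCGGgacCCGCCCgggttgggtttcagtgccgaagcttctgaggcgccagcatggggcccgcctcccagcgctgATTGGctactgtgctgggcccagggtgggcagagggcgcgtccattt
Sc5d (ENSMUSG00000032018, chr9:42264301-42264550, minus strand): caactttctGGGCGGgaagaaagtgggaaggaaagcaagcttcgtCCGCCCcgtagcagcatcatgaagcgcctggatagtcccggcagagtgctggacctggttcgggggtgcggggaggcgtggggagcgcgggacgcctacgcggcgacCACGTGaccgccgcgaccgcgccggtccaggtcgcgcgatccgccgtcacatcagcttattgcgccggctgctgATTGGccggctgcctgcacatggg
Lss (ENSMUSG00000033105, chr10:76531355-76531604, plus strand): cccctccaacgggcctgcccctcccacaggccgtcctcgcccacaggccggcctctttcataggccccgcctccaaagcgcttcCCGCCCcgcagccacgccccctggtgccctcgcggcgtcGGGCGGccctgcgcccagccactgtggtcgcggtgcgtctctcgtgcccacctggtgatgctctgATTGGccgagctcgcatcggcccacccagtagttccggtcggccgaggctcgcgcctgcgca
Insig1 (ENSMUSG00000045294, chr5:28071162-28071411, plus strand): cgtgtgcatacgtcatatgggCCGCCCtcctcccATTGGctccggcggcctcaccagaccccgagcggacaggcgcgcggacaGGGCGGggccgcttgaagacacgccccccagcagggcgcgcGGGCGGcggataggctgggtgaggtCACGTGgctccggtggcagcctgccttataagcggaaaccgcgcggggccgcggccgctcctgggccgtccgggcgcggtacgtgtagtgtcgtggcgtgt
Fasn (ENSMUSG00000025153, chr11:120824548-120824797, minus strand): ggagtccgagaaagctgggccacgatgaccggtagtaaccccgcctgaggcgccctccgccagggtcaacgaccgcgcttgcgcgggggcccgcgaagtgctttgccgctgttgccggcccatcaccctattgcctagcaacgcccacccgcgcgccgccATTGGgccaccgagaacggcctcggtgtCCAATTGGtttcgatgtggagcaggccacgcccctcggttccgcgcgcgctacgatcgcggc

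The RefSeq promoter table held an entry for 25 of the 32 genes. Fdps, Fads1, Sqle, Fdft1, Scd1, Stard4 and Scd2 were not among them. As an exact match to TCACNCCAC, the sterol regulatory element was found in 1 of 25, Hmgcs1, and in 1.05% of all 32851 promoters of that table. Variants of the element that differ from these letters were not searched. CCAAT was found in 18 of 25 (72.0%) against 33.8% of all promoters. By branch it was in 13 of 15 sterol genes, 4 of 5 regulators and 1 of 5 fatty acid genes, which was Fasn. GGGCGG was also in 18 of 25 against 32.7%, with 14 of 15 sterol genes, 2 of 5 regulators and 2 of 5 fatty acid genes. CACGTG was in 3 of 25, Hsd17b7, Insig1 and Sc5d, against 6.02% of all. Hmgcs1 held 3 CCAAT boxes and 2 GC boxes beside its element, and Tm7sf2 held 1 CCAAT box and 2 GC boxes. Both genes that fell carried CCAAT and GC boxes, which nearly all of the 15 sterol promoters held whatever the direction of the gene. The sterol genes Fdft1, Sqle and Stard4, which rose, had no entry to compare. The Tm7sf2 window lies inside the annotated gene, which begins at 6068373 on its strand. The Acaca window, 84195188 to 84195437, also lies inside its gene, which spans 84129672 to 84401651, and it holds 0 matches. It is 1 of the 5 fatty acid windows, so the shares by branch do not compare gene starts alone. A part of the boxes in the direction of change was not tested. Fasn held 3 matches to CCAAT, of which 2 overlap on opposite strands. A match describes the letters of this window and is not a measured binding site.

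With the control virus, 9 of the 19 sterol branch genes rose after BDNF and 2 fell, where 16.8% of all genes rose and 14.7% fell. The median log2 fold change of all 19 was 0.33, against -0.0098 for all genes tested. With this virus the called rises were mostly late in the pathway. Of the 11 genes from squalene to cholesterol 7 rose and 1 fell (median 0.33), while of the 7 mevalonate genes 1 rose and 1 fell (median 0.16). Without BDNF replicate 1 the sterol median was 0.069, and without BDNF replicate 2 it was 0.46. With the H2BE virus the medians of late and early genes were closer. The 11 genes from squalene to cholesterol had 0.24 (4 higher, 1 lower) and the 7 mevalonate genes 0.20 (0 called).

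At the entry to the pathway, Hmgcs1 was at 1369 and 1379 CPM in Control, 1313 and 1140.1 in BDNF, 1241 and 1268 in H2BE, and 1149 and 1228 in H2BE+BDNF. It was lower in both BDNF libraries than in both Control libraries, with a log2 fold change of -0.16 (SE 0.057, adjusted p = 0.038). Leaving out BDNF replicate 1 gave -0.27, and over all 17 alternatives it ran from -0.27 to -0.059 with an adjusted p up to 0.43. The call was lost in 7 of them: without Control replicate 1, Control replicate 2 or BDNF replicate 2, with DESeq2, with only the 2 groups in the fit, with a length and GC correction, and with a crossed replicate block. Mvk, mevalonate kinase, was at 38.4 and 40.5 CPM in Control, 58.4 and 41.8 in BDNF, 42.6 and 40.7 in H2BE, and 48.0 and 54.5 in H2BE+BDNF. It rose with a log2 fold change of 0.35 (SE 0.13, adjusted p = 0.049) and BDNF replicate 2 lay just above the higher Control library. Its value without BDNF replicate 1 was 0.095 (adjusted p = 0.52), and the call was lost in 10 of the 17 alternatives, among them each of the 7 that left out a library other than BDNF replicate 2. Without BDNF replicate 2 it was 0.58. The decarboxylase gene Mvd was not called although both BDNF libraries lay above both Control libraries, 0.43 (95% interval -0.012 to 0.87, adjusted p = 0.13). Its BDNF values were 131.6 and 83.7 CPM, against 80.2 and 79.2 in Control. The acetyltransferase Acat2, the kinase Pmvk, the isomerase Idi1 and farnesyl diphosphate synthase Fdps were not called, with values from 0.036 (Fdps) to 0.19 (Acat2). Acat2, Fdps and Idi1 share 39.1%, 26.2% and 17.7% of their 50-base exon windows with other genes, so their counts are uncertain.

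From squalene onwards most genes rose. Squalene synthase Fdft1 was at 186 and 194 CPM in Control, 268 and 213 in BDNF, 203 and 223 in H2BE, and 235 and 252 in H2BE+BDNF. Squalene epoxidase Sqle, a controlled step of the pathway, was at 307 and 289.8 CPM in Control, 409.6 and 341 in BDNF, 320.2 and 309.6 in H2BE, and 354 and 389 in H2BE+BDNF. Lanosterol synthase Lss, which closes the ring, was at 63.1 and 63.6 CPM in Control, 109 and 83.2 in BDNF, 76.9 and 77.8 in H2BE, and 84.7 and 89.7 in H2BE+BDNF. In all 3 genes both BDNF libraries were above both Control libraries. The log2 fold changes were 0.34 (SE 0.089, adjusted p = 0.0092) for Fdft1, 0.33 (SE 0.074, adjusted p = 0.0032) for Sqle and 0.60 (SE 0.10, adjusted p = 0.00025) for Lss. They were, without BDNF replicate 1, 0.17, 0.19 and 0.40, and Fdft1 was then no longer called (adjusted p = 0.053, and up to 0.13 over all alternatives). Fdft1 was also not called without Control replicate 1. The exons of Fdft1 overlap Ctsb on the opposite strand by 774 bases, and Ctsb fell by 0.14 on the log2 scale.

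The enzymes that strip methyl groups from lanosterol moved in the same direction. The methylsterol oxidase gene Msmo1 was at 188 and 187 CPM in Control, 258 and 212 in BDNF, 154 and 182 in H2BE, and 230.3 and 232 in H2BE+BDNF. Nsdhl, a sterol dehydrogenase, was at 56.3 and 60.6 CPM in Control, 102 and 72.3 in BDNF, 65.2 and 67.9 in H2BE, and 81.0 and 85.2 in H2BE+BDNF. Hsd17b7, a ketosterol reductase, was at 92.2 and 97.5 CPM in Control, 139.8 and 115 in BDNF, 94.6 and 106 in H2BE, and 119.8 and 117 in H2BE+BDNF. For each of them the BDNF libraries did not overlap with Control. Their log2 fold changes were 0.33 (SE 0.085, adjusted p = 0.0094), 0.58 (SE 0.13, adjusted p = 0.0043) and 0.43 (SE 0.084, adjusted p = 0.00079). These were 0.18, 0.32 and 0.29 without BDNF replicate 1. Msmo1 was then not called (adjusted p = 0.056, and up to 0.10 over all alternatives), nor was it without either Control library, and Nsdhl was not called without Control replicate 1. Lanosterol demethylase Cyp51, the step before these, was not called, 0.11 (95% interval -0.055 to 0.27).

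Sc5d, a late sterol desaturase, responded evenly across libraries. It was at 74.6 and 74.6 CPM in Control, 114 and 109 in BDNF, 73.4 and 82.0 in H2BE, and 113 and 116 in H2BE+BDNF. All 4 libraries with BDNF lay at or above 109 CPM and all 4 without lay at or under 82.0 CPM. The BDNF against Control value was a log2 fold change of 0.58 (SE 0.069, adjusted p = 5.61e-06), and 0.55 without BDNF replicate 1. Stard4, a soluble carrier that moves sterol between membranes, was at 92.6 and 92.5 CPM in Control, 152 and 121 in BDNF, 100.4 and 94.3 in H2BE, and 111 and 121 in H2BE+BDNF. It rose with a log2 fold change of 0.56 (SE 0.089, adjusted p = 0.00014), and was 0.39 without BDNF replicate 1. Both calls stood in all 17 alternatives, as did those of Sqle, Lss and Hsd17b7. Dhcr7, a reductase of the last steps, and the isomerase Ebp were not called with the control virus (0.14 and 0.056).

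Tm7sf2 went the other way. This sterol reductase, which acts after Cyp51, was at 27.9 and 29.7 CPM in Control, 22.2 and 17.98 in BDNF, 29.3 and 28.2 in H2BE, and 18.2 and 22.9 in H2BE+BDNF. Every library with BDNF was below every library without it. The log2 fold change was -0.51 (SE 0.13, adjusted p = 0.0057) with the control virus and -0.50 (SE 0.14, adjusted p = 0.016) with the H2BE virus. Without BDNF replicate 1 the former was -0.67, and without BDNF replicate 2 it was not called (adjusted p = 0.057). The latter was not called with DESeq2, without H2BE replicate 2 or without H2BE+BDNF replicate 2 (adjusted p up to 0.21). Tm7sf2 overlaps Vps51 on the same strand over 532 bases of exon, and 9.87% of its 50-base windows also occur in Vps51, so its counts are uncertain. Vps51 itself had -0.20 with the control virus (adjusted p = 0.10) and -0.30 with the H2BE virus (adjusted p = 0.039).

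**Figure D3:**
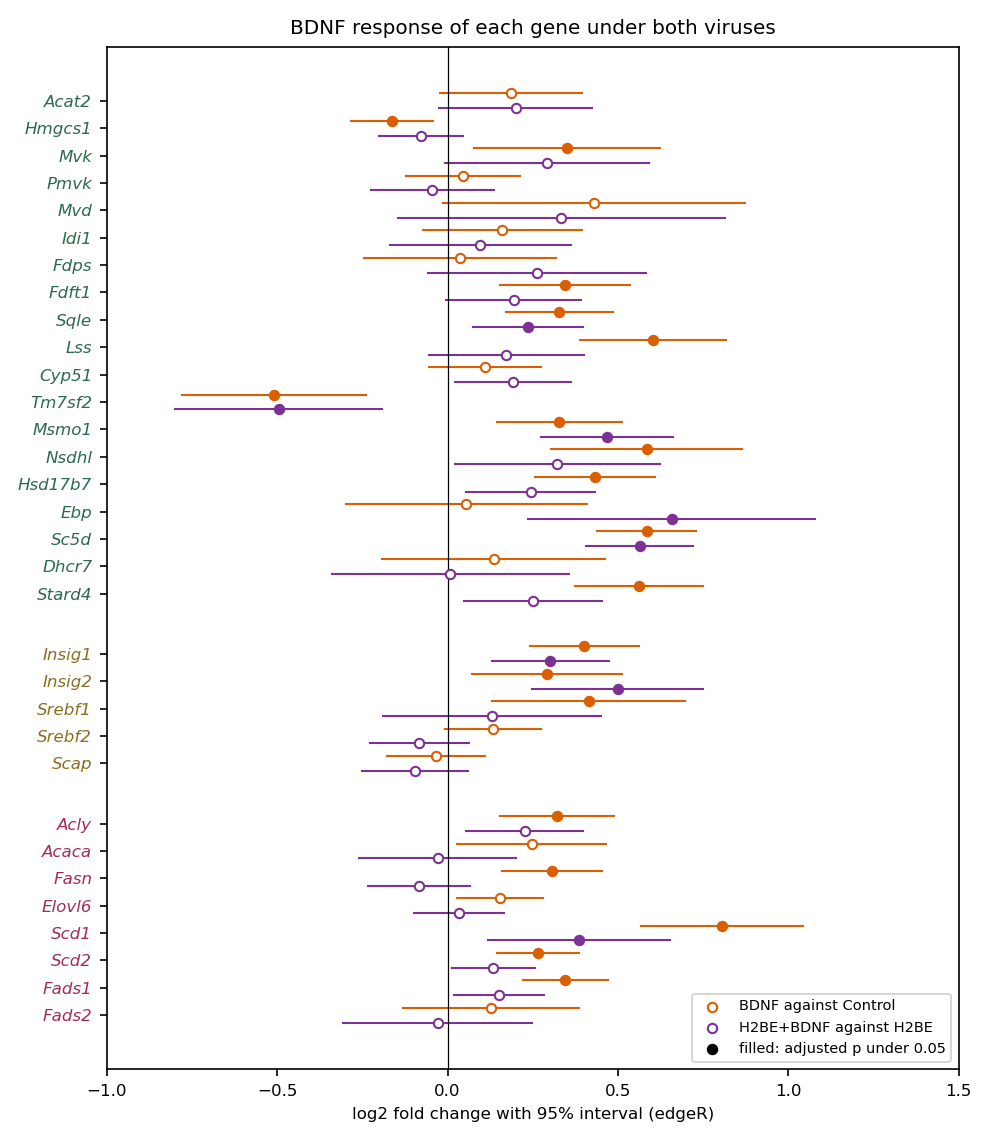
BDNF response of each gene, as log2 fold change (horizontal axis) with its 95% interval from edgeR, with the control virus (orange) and the H2BE virus (purple). Filled points passed an adjusted p of 0.05: 19 of 32 in orange and 8 of 32 in purple.

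Among the 5 regulators 3 rose with the control virus, with a median of 0.29, where 16.8% of all genes were called higher. Insig1, which retains SREBP precursors and is itself an SREBP target, was at 138 and 137 CPM in Control, 199 and 165 in BDNF, 125 and 136 in H2BE, and 158 and 163 in H2BE+BDNF. Insig2, its relative, was at 35.9 and 34.1 CPM in Control, 42.5 and 43.7 in BDNF, 31.3 and 28.2 in H2BE, and 37.7 and 47.3 in H2BE+BDNF. Srebf1, which encodes the SREBP mostly tied to fatty acid genes, was at 14.3 and 15.4 CPM in Control, 20.6 and 18.6 in BDNF, 15.6 and 16.7 in H2BE, and 19.1 and 15.9 in H2BE+BDNF. In all 3 the BDNF libraries were above Control without overlap, and for both Insig genes the H2BE+BDNF libraries were also above H2BE. With the control virus the values were 0.40 (SE 0.076, adjusted p = 0.00061) for Insig1, 0.29 (SE 0.10, adjusted p = 0.042) for Insig2 and 0.41 (SE 0.13, adjusted p = 0.026) for Srebf1. Without BDNF replicate 1 they were 0.26, 0.31 and 0.34, of which Srebf1 was then not called (adjusted p = 0.089). Srebf1 was called in 12 of 17 alternatives (adjusted p up to 0.25) and Insig2 in 11 (up to 0.18). Neither was called without Control replicate 1 or Control replicate 2, and Insig2 was not called without BDNF replicate 2. Srebf2, which encodes the SREBP mostly tied to sterol genes, was not called, 0.13 (95% interval -0.0062 to 0.28). Scap was not called, -0.034 (95% interval -0.18 to 0.11).

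All 8 fatty acid genes had a positive log2 fold change with the control virus and 5 rose, with a median of 0.29. The share of all genes called higher was 16.8%. ATP citrate lyase Acly, which supplies acetyl-CoA from citrate, was at 348 and 368 CPM in Control, 489 and 404 in BDNF, 363 and 353 in H2BE, and 395 and 443 in H2BE+BDNF. Fatty acid synthase Fasn was at 583 and 601 CPM in Control, 783 and 679.8 in BDNF, 732 and 649 in H2BE, and 626 and 679.9 in H2BE+BDNF. In both genes the BDNF libraries were above both Control libraries, whereas the 2 H2BE+BDNF libraries of Fasn lay within or below the H2BE range. The values with the control virus were 0.32 (SE 0.078, adjusted p = 0.0060) for Acly and 0.31 (SE 0.069, adjusted p = 0.0033) for Fasn. Both were still called without BDNF replicate 1, at 0.18 and 0.20. Neither was called without Control replicate 1 (adjusted p up to 0.096 for Acly and 0.13 for Fasn). Fasn was not called after the length and GC correction, where it was 0.14.

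Of the 4 fatty acid desaturase genes 3 rose. Scd1, a stearoyl-CoA desaturase that makes monounsaturated fatty acids, was at 37.8 and 32.5 CPM in Control, 65.1 and 59.9 in BDNF, 42.3 and 32.5 in H2BE, and 45.2 and 54.3 in H2BE+BDNF. Its relative Scd2 was at 834 and 824 CPM in Control, 1068 and 926 in BDNF, 857 and 829.6 in H2BE, and 909.5 and 942 in H2BE+BDNF. Fads1, a desaturase of polyunsaturated fatty acids, was at 164 and 159.9 CPM in Control, 212 and 200.2 in BDNF, 174 and 159.8 in H2BE, and 182 and 189.5 in H2BE+BDNF. BDNF and Control did not overlap in any of the 3. Scd2 rose with a log2 fold change of 0.27 (SE 0.057, adjusted p = 0.0019), and Fads1 with a log2 fold change of 0.35 (SE 0.059, adjusted p = 0.00025). The values without BDNF replicate 1 were 0.74 for Scd1, 0.16 for Scd2 and 0.30 for Fads1. All 3 calls stood in all 17 alternatives. Scd1 and Scd2 share 4.56% and 3.97% of their 50-base exon windows with other genes, each other included. Elovl6, an elongase, was just outside the threshold with 0.15 (95% interval 0.028 to 0.28, adjusted p = 0.060). Acetyl-CoA carboxylase Acaca was at 0.25 (adjusted p = 0.080), and 30.4% of its windows occur in other genes. Fads2, the partner desaturase of Fads1, was at 0.13 (adjusted p = 0.45). On chromosome 19 (GRCm38), Fads1 spans 10182888 to 10196877 and Fads2 10062765 to 10101746, while Scd2 spans 44293674 to 44306864 and Scd1 44394455 to 44407879.

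Leaving out Control replicate 1 reduced the rises with the control virus from 17 to 9 genes, and leaving out BDNF replicate 1 to 13. Of the 17 genes 9 were called higher in every one of the 17 alternatives: Lss, Hsd17b7, Sc5d, Sqle and Stard4 of the sterol branch, Insig1, and Scd1, Scd2 and Fads1.

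With the H2BE virus the BDNF response was tested on other libraries. Called higher were 4 of 19 sterol genes (median 0.24), 2 of 5 regulators (median 0.13) and 1 of 8 fatty acid genes (median 0.084). The median of all genes tested was -7.1e-05. Sc5d rose with a log2 fold change of 0.56 (SE 0.074, adjusted p = 2.60e-05). Msmo1 rose by more than with the control virus in its estimate, 0.47 (SE 0.091, adjusted p = 0.0015). Sqle was at 0.24 (adjusted p = 0.031), Insig1 at 0.30 (adjusted p = 0.011), Insig2 at 0.50 (adjusted p = 0.0049) and Scd1 at 0.39 (adjusted p = 0.032). These 6 genes rose, and Tm7sf2 fell, under both viruses. They are 7 of the 19 calls with the control virus and 7 of the 8 with the H2BE virus. Of the 32 genes 21.9% were called the same way in both, against 2200 of all 13452 genes (16.4%).

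Ebp, the sterol isomerase, was called with the H2BE virus only. It was at 13.1 and 12.9 CPM in Control, 15.7 and 11.4 in BDNF, 9.91 and 8.53 in H2BE, and 13.5 and 15.999 in H2BE+BDNF. The H2BE libraries were the lowest of all 8, and H2BE+BDNF lay above them with a log2 fold change of 0.66 (SE 0.20, adjusted p = 0.021). The H2BE+BDNF libraries overlapped the range of the BDNF libraries. Ebp had the fewest counts of the 32, and its call was lost with DESeq2 and without H2BE replicate 2, H2BE replicate 3 or H2BE+BDNF replicate 3 (adjusted p up to 0.14).

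Just outside the threshold with the H2BE virus were Acly (0.23, adjusted p = 0.052), Hsd17b7 (0.24, adjusted p = 0.055) and Stard4 (0.25, adjusted p = 0.064). Of the 19 sterol genes, 14 were higher in both H2BE+BDNF libraries than in both H2BE libraries and 3 were lower, where the background of all genes was 32.1% higher and 31.3% lower. The number called higher depended on single libraries: 2 without H2BE+BDNF replicate 3, 4 without H2BE replicate 2, and 17 without BDNF replicate 1 or without BDNF replicate 2. The BDNF libraries are in neither group compared here, and leaving one out changed the shared fit and the number of genes tested. Sc5d and Msmo1 kept their calls in all 17 alternatives. Insig1 was not called without H2BE replicate 2 or H2BE+BDNF replicate 3, and Insig2 not without the latter. Scd1 was not called with DESeq2, without H2BE replicate 3 or without H2BE+BDNF replicate 3 (adjusted p up to 0.28), and Sqle not without either H2BE library, without H2BE+BDNF replicate 3 or with the length and GC correction (up to 0.22).

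**Figure D4:**
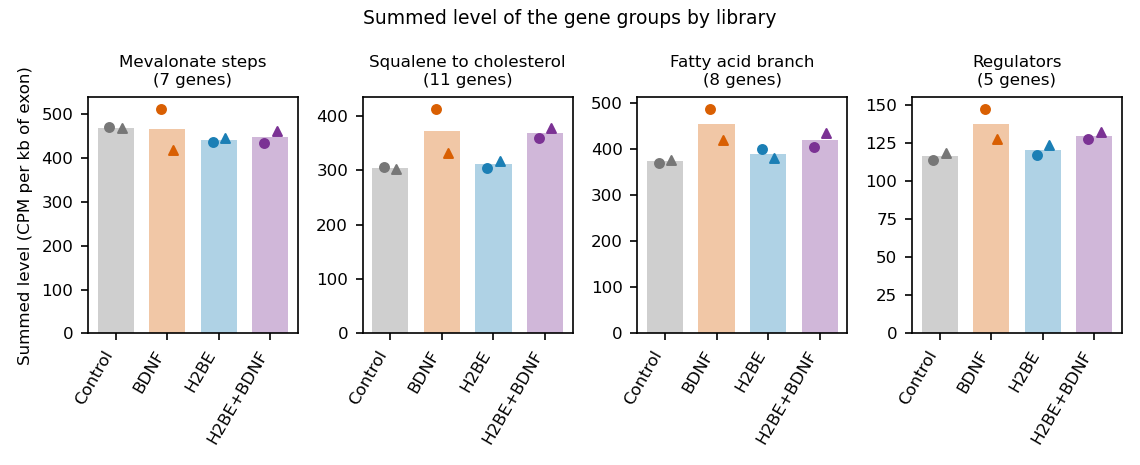
Summed level of each gene group in CPM per kb of exon (vertical axis), with bars for the mean of 2 libraries and points for each library. Squalene to cholesterol is at 302 and 306 in Control, 332 and 413 in BDNF, 305 and 317 in H2BE, and 360 and 377 in H2BE+BDNF.

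Side by side, the summed levels of the groups differed in how they moved. The 11 genes from squalene to cholesterol summed to 304 ± 2.88 CPM per kb in Control (SD, n = 2), 372 ± 57.5 in BDNF, 311 ± 8.39 in H2BE and 368 ± 12.3 in H2BE+BDNF. Every library with BDNF was above every library without. The 7 mevalonate genes summed to 469 ± 1.16, 465 ± 66.0, 441 ± 6.85 and 448 ± 19.8 in the same order. BDNF overlapped Control and H2BE+BDNF overlapped H2BE, while both Control libraries were above all 4 libraries with the H2BE virus. Hmgcs1, at a mean of 274 CPM per kb, is the largest part of this sum, which need not show how the other mevalonate genes moved. Without Hmgcs1 the whole sterol sum was 494.9 and 487.1 in Control and 666.4 and 523.8 in BDNF. It was 488.7 and 503.2 in H2BE and 563.3 and 593.2 in H2BE+BDNF. The 8 fatty acid genes summed to 374 ± 4.08, 455 ± 47.4, 391 ± 13.999 and 420.3 ± 21.9. They were higher in all 4 libraries with BDNF, 405 to 489, than in all 4 without, 371 to 400.4. The 5 regulators summed to 116 ± 2.96, 138 ± 13.97, 121 ± 4.48 and 130.2 ± 3.61. The ratio of the sterol to the fatty acid sum was 2.14 and 2.09 in Control, 1.95 and 1.83 in BDNF, 1.89 and 2.05 in H2BE, and 2.01 and 1.97 in H2BE+BDNF. Control was above all other libraries in that ratio. Without Hmgcs1 the ratio was 1.22 to 1.39 over the 8 libraries, and Control (1.33 and 1.29) lay inside the range of the others.

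For the H2BE virus without BDNF no gene of the 32 was called with edgeR, against a background of 2.53% of all genes (1.54% higher and 0.989% lower). Both H2BE libraries were above both Control libraries at 13 genes and below at 7, against 24.5% and 25.2% of all genes. At an unadjusted p under 0.05 there were 6 (4 higher, 2 lower), against 18.2% of all genes, and DESeq2 called 1, Fasn. Fasn was higher in both H2BE libraries than in both Control libraries, with 0.22 (95% interval 0.075 to 0.37, adjusted p = 0.099). Srebf2 was at 321 and 353 CPM in Control, 396 and 341 in BDNF, 379 and 402 in H2BE, and 364 and 373 in H2BE+BDNF. It was at 0.22 (95% interval 0.073 to 0.36, adjusted p = 0.095). Lss was at 0.29 (adjusted p = 0.17) and Ebp at -0.48 (adjusted p = 0.20). Both H2BE libraries were above Control for Fasn, Srebf2 and Lss and below it for Ebp. Fasn, Srebf2 and Lss were called in 6, 5 and 3 of the alternatives, each time higher. For Fasn and Srebf2 these include the fit with all 10 libraries, which counts Control replicate 3 and BDNF replicate 3 as replicates although they are subsets. All 3 were called without BDNF replicate 1, without BDNF replicate 2 and with only the 2 groups in the fit. All 8 fatty acid genes had positive values, from 0.0029 (Acly) to 0.23 (Acaca), with a median of 0.080. The sterol median was 0.011. The median half-width of the 95% interval over the 32 genes was 0.20, without adjustment for the number of genes tested. The largest value not called was 0.48 in size (Ebp), so a gene that was not called may still differ.

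For the H2BE virus in the presence of BDNF again none of the 32 was called with edgeR, and the background was 0.0297% of all genes, 4 of 13452 (0.0149% higher and 0.0149% lower). At an unadjusted p under 0.05 there were 5, all lower (11.3% of all genes), and DESeq2 called none. All 8 fatty acid genes were negative here, from -0.33 (Scd1) to -0.043 (Acaca), with a median of -0.10. BDNF replicate 1 was higher than BDNF replicate 2 at all 8. The median was 0.0066 without BDNF replicate 1 and -0.22 without BDNF replicate 2. Scd1 had a 95% interval of -0.57 to -0.10 and an adjusted p of 0.29, and both H2BE+BDNF libraries were below both BDNF libraries. Stard4 was at -0.23 (adjusted p = 0.34), Insig1 at -0.18 (adjusted p = 0.38) and Fads1 at -0.15 (adjusted p = 0.36). These 4 were the genes whose groups did not overlap, all lower, where 19.6% of all genes were wholly higher and 21.3% wholly lower. Results of this comparison depended on which BDNF library was used. Without BDNF replicate 1, Mvd (0.26) and Dhcr7 (0.29) were called higher, and without BDNF replicate 2, Mvd (-0.40) and Stard4 (-0.40) were called lower. In each of these fits the BDNF group is 1 library, with its spread taken from the other groups.

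**Figure D5:**
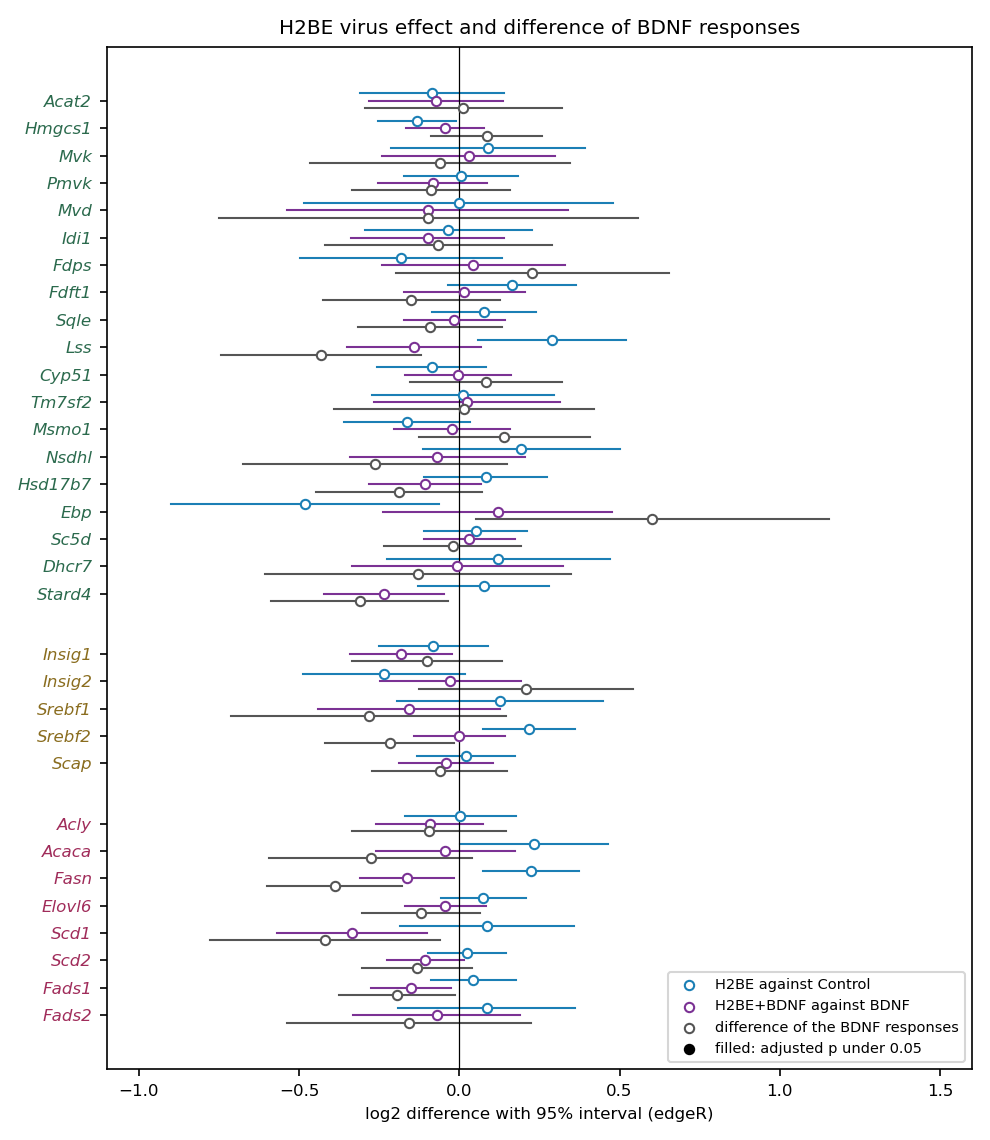
Effect of the H2BE virus without BDNF (blue) and with BDNF (purple), and the difference of the BDNF responses under the H2BE and control viruses (grey), as log2 values (horizontal axis) with 95% intervals from edgeR. No point is filled, because none of the 32 genes passed an adjusted p of 0.05, and the grey points of all 8 fatty acid genes lie below 0.

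Whether the BDNF response itself differed between the viruses was tested as the difference of the 2 responses. None of the 32 was called with edgeR, against a background of 1.42% of all genes (0.424% higher and 0.996% lower). At an unadjusted p under 0.05 there were 7 (6 lower, 1 higher), against 16.7% of all genes, and DESeq2 called 1, Fasn. The Fasn response went from 0.31 with the control virus to -0.083 with the H2BE virus, a difference of -0.39 (95% interval -0.60 to -0.18, adjusted p = 0.066). In 7 alternatives it was called, at -0.49 to -0.29, with the fit of all 10 libraries as 1 of these. Among them were DESeq2 (adjusted p = 0.0052), the replicate block, and the fits without BDNF replicate 1 and without BDNF replicate 2. The difference was -0.43 for Lss (adjusted p = 0.16), -0.42 for Scd1 (adjusted p = 0.23) and 0.60 for Ebp (adjusted p = 0.25). All 8 fatty acid genes had a lower log2 fold change after BDNF with the H2BE virus, with differences from -0.42 to -0.096 and a median of -0.18. Of the sterol genes 12 of 19 had a lower one, with a median difference of -0.065, and of the regulators 4 of 5. Without BDNF replicate 1 the median difference was 0.17 for the sterol genes, 0.0023 for the regulators and -0.11 for the fatty acid genes. Without BDNF replicate 2 these medians were -0.19, -0.23 and -0.30. Sc5d and Tm7sf2 differed least from 0 among genes called under both viruses, -0.021 (95% interval -0.24 to 0.19) and 0.013 (-0.39 to 0.42). Without BDNF replicate 2, 7 of the 32 were called lower: Mvd, Lss, Nsdhl, Dhcr7, Stard4, Srebf2 and Fasn. The 11 genes called with the control virus only (Acly, Fads1, Fasn, Fdft1, Hsd17b7, Lss, Mvk, Nsdhl, Scd2, Srebf1 and Stard4, all higher) are therefore not shown to respond differently with the H2BE virus.

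Genes next to these in the pathway gave the following counts in the BDNF comparisons, with log2 fold changes in parentheses. The backgrounds for all of them are 16.8% of all genes higher and 14.7% lower with the control virus, and 13.5% and 12.4% with the H2BE virus. Among 10 partners of SREBP processing and turnover, 3 fell with the control virus. They were the ubiquitin ligase subunit Fbxw7, which marks nuclear SREBP for degradation (-0.52, adjusted p = 4.66e-05), Pgrmc1 (-0.19, adjusted p = 0.011) and Erlin2 (-0.24, adjusted p = 0.012). With the H2BE virus 2 fell, Fbxw7 (-0.52) and Erlin2 (-0.22), and 1 rose, the ligase gene Rnf139 (0.28), named here after its value was seen. The median of the 10 was -0.080 with the control virus and -0.057 with the H2BE virus.

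Among 19 tested genes of sterol uptake, efflux, storage and turnover 6 rose and 1 fell with the control virus, and 5 rose and 5 fell with the H2BE virus, against backgrounds of 31.4% and 25.9% called in either direction. Gramd1b, which carries cholesterol from the plasma membrane to the endoplasmic reticulum, had 0.93 (SE 0.064, adjusted p = 1.31e-08) and, with the H2BE virus, 0.62. The lipoprotein receptor gene Lrp8 had 0.69 (adjusted p = 1.30e-06) and 0.40. The receptor gene Lrp1 rose with the control virus (0.33, adjusted p = 0.00022) and had -0.078 with the H2BE virus (adjusted p = 0.33). Its difference of responses was called, -0.40 (adjusted p = 0.025), the only such call in the 6 lists of other lipid genes. That call was lost with the crossed replicate block, where 0 of all genes were called for this difference. With the length and GC correction 1 gene was called higher and 4 lower for it. Without BDNF, Lrp1 was higher with the H2BE virus by 0.26 (adjusted p = 0.023) and Lrp8 by 0.30 (adjusted p = 0.046). In that comparison 207 of all genes were called higher, and 24 with the length and GC correction. Whether Lrp1 and Lrp8 were among the latter is not given here. The Lrp1 and Lrp8 values share the Control libraries with the BDNF against Control values. With the control virus the gene that fell was the sterol exporter Abcg1 (-0.64 and -0.74, adjusted p = 0.0066 and 0.0082). The others that fell with the H2BE virus were Apoe (-0.44), Vldlr (-0.26), Abcg4 (-0.25) and Gramd1a (-0.20). Abcg1 and these 4 were named after their values were seen. Apoe is also made by astrocytes. Of 7 tested astrocyte markers 5 had a negative value in this comparison (median -0.15) and 1 was called, Aqp4 (-1.06, adjusted p = 0.018). Their summed level, most of it Slc1a2, was 457 CPM in H2BE and 442 to 449 in H2BE+BDNF, and their part in the Apoe value was not tested.

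Among 25 tested genes of other fatty acid synthesis, elongation and activation 7 rose and 2 fell with the control virus (median 0.11), and 8 rose and 1 fell with the H2BE virus (median 0.11). The backgrounds called in either direction were 31.4% and 25.9%. Acsl4, an acyl-CoA synthetase for polyunsaturated fatty acids, had 0.54 (SE 0.055, adjusted p = 1.13e-06) and 0.54. The related synthetase Acsl6 had 0.38 (adjusted p = 0.00033) and 0.32. The elongase gene Elovl7 had the largest value of the list, 1.49 (SE 0.21, adjusted p = 3.30e-05), and 0.82 with the H2BE virus. All 3 passed the threshold under both viruses. The genes that fell were Fads3 (-0.34) and Hacd3 (-0.15) with the control virus and Elovl2 (-0.32) with the H2BE virus, named after their values were seen.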

How the data were processed

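RNA of 10 libraries of mouse primary cortical neurons was measured by polyA RNA sequencing. The authors deposited raw read counts per gene and, as a signal column set, counts divided by a size factor per library. The second table served only for gene symbols. Per the submitters' processing notes, mm10, SAMtools, DESeq2 and deepTools were used, and no aligner, counter, annotation release or strand setting is named in these sources. Reads of genes that overlap on either strand may therefore have been shared or dropped.

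The deposited counts were tested with edgeR 4.0.16 in R 4.3.3 (quasi-likelihood F test, limma 3.58.1). The fit had 1 mean per group, TMM scaling and a low-count filter (minimum count 10, total 15) that kept 13452 genes holding 99.78% of counts. Adjusted p-values are Benjamini-Hochberg over those genes, with a threshold of 0.05, in each of 5 comparisons. Control replicate 3 and BDNF replicate 3 held no count above replicate 1 of their group at any gene and were left out, so n = 2 per group. Library totals were 5058074 to 14142545 counts. The scripts were tested on simulated data. Every gene of the list was accounted for: those called in any comparison were given with all libraries, and for other lists up to 3 genes by smallest p in BDNF against Control were named. Genes named outside this rule are marked as such. The genes and lists were chosen with earlier results of these data known.

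Alternatives were DESeq2 1.42.0, DESeq2 size factors, no filter, all 10 libraries, replicate 3 for replicate 1, only the groups compared, a replicate block, a length and GC correction, each library left out, and a crossed block. Exon lengths and overlaps came from GENCODE M21 (GRCm38). Motifs were searched in the RefSeq promoter table of GRCm38.p6.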

Additional observations from a re-analysis of the deposited data

How the results depend on the processing

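The fit with all 10 libraries counts Control replicate 3 and BDNF replicate 3 as replicates, although they are subsets, and it gave the 23 below. With the control virus, the number of the 32 genes called higher after BDNF was 14 to 23 under the alternatives other than leaving out 1 library. It ran from 9 (without Control replicate 1) to 24 (without BDNF replicate 2) when 1 library was left out. The number called lower was 1 rather than 2 with DESeq2, with only the groups compared, with the length and GC correction and with the crossed block, and 0 to 2 with 1 library left out. With the H2BE virus 7 genes higher became 13 without a filter, 17 with only the groups compared, 12 with the replicate block and 11 with the crossed block, all 7 among them each time. It ran from 2 to 17 with 1 library left out, while 1 gene lower became 0 with DESeq2 and 0 to 1 with 1 library left out. For H2BE against Control, 0 higher became 1 with DESeq2, 2 without a filter, 2 with all 10 libraries, 4 with only the groups compared, and 0 to 3 with 1 library left out, with 0 to 0 lower. For H2BE+BDNF against BDNF, 0 lower became 1 without a filter, and leaving out 1 library gave 0 to 2 higher and 0 to 2 lower. For the difference of responses, 0 lower became 1 with DESeq2, 2 without a filter, 2 with all 10 libraries and 1 with the replicate block, and leaving out 1 library gave 0 to 1 higher and 0 to 7 lower. The cause was not tested.

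The genes called in either BDNF comparison kept their sign in all 17 alternatives. Mvd, not called in H2BE+BDNF against BDNF, was called there at 0.26 without BDNF replicate 1 and at -0.40 without BDNF replicate 2. In the BDNF comparison with the control virus the calls stood in 285 gene and setting pairs and were lost in 38, and with the H2BE virus stood in 119 and were lost in 17. The pairs include the fit with all 10 libraries, where 19 stood with the control virus and 8 with the H2BE virus. The replicate numbers of the labels are not said to mark shared cultures. Same-numbered libraries had correlations of deviations of -0.17 (Control and BDNF) and -0.30 (H2BE and H2BE+BDNF), so the replicate block gives counts only. With it 16 genes were higher and 2 lower in BDNF against Control. The crossed pairing was chosen after seeing the data and gave 19 higher and 1 lower there. With 2 libraries per group, the median half-width of the 95% interval over the 32 genes was 0.19 for BDNF against Control and 0.28 for the difference of responses, which limits what could be detected. Ebp (43 counts at the lowest) and Srebf1 (84 counts) were the least deeply counted.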

Other observations

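Other lipid pathways gave these log2 fold changes after BDNF, each with its edgeR adjusted p. Among 23 tested genes of phospholipid and triglyceride synthesis 3 rose with the control virus, and 2 rose and 2 fell with the H2BE virus. The backgrounds of all genes, higher and lower, were 16.8% and 14.7% with the control virus and 13.5% and 12.4% with the H2BE virus. Cds1, which makes CDP-diacylglycerol, the precursor of phosphatidylinositol, had 0.92 (SE 0.075, adjusted p = 8.28e-08) and, with the H2BE virus, 1.03 (SE 0.082, adjusted p = 9.90e-08). Dgat2, which makes triglyceride, had 0.24 (adjusted p = 0.022) and 0.35 (adjusted p = 0.0038). Choline kinase Chka had 0.23 (adjusted p = 0.042) and 0.17 (adjusted p = 0.20). With the H2BE virus Cds2 (-0.20) and Lpin1 (-0.42) fell, both named after their values were seen.

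Among 19 tested genes of fatty acid oxidation 2 rose and 4 fell with the control virus, and 2 rose and 2 fell with the H2BE virus, against backgrounds of 31.4% and 25.9% called in either direction. Cpt1c, a carnitine palmitoyltransferase relative found in neurons, had -0.44 (adjusted p = 0.00077) and -0.34 (adjusted p = 0.014). Acaa2, the mitochondrial thiolase, had -0.58 (adjusted p = 0.00080) and -0.37 (adjusted p = 0.044). Etfdh, which passes electrons to ubiquinone, had -0.35 (adjusted p = 0.012) and 0.23 (adjusted p = 0.15), and its difference of responses was 0.59 (adjusted p = 0.066). Named after their values were seen were Hadha (0.29), Eci1 (-1.11) and, with the H2BE virus, Slc25a20 (0.67). Of the 16 genes of the isoprenoid branch, which leaves the mevalonate steps, 0 were called with the control virus, against 31.4% of all genes. With the H2BE virus only Rabggtb was called (0.35, adjusted p = 0.0086), against 25.9% of all genes.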
